A study of Mus musculus with 4 samples.

Results

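Rab GTPases, the small GTP-binding proteins that direct vesicle traffic, were measured as messenger RNA in normal B cells and in B-cell lymphoma lines of the mouse. The members were all genes whose name on the array is Rab, a number and at most 2 further letters, which gave 55 of 27745 named genes, carried by 110 probes with 1 to 4 probes per gene. Rab7b, Rab42 and Rab29 stand on the array under older names that the rule did not take. Of the 55 members, 49 were well above background on at least 2 of the 4 arrays and were tested. Of the 6 not tested, Rab38, Rab3c, Rab40b and Rab9b were not well above background on any array, and Rab27b and Rab36 were so on 1 line array each. The control group was 2 samples of B220+ splenocytes from female C57BL/6N mice, B220 being a surface protein by which B cells are selected. The other group was 2 B-cell lymphoma lines from female C57BL/6N mice carrying a dopamine receptor 3 transgene, set up independently of each other. Each line is 1 culture on 1 array, the promoter of the transgene is not given in the sources used here, and no cultured normal B cell was among the samples. Lymphoma against normal, culture against spleen, and transgenic against not transgenic therefore cannot be told apart in any difference given here.

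A Rab protein cycles between a GDP-bound form held in the cytosol by a chaperone and a GTP-bound form on a membrane, where it recruits effectors such as tethers, motors and adaptors. Exchange factors load the GTP, GTPase-activating proteins speed its hydrolysis, and a lipid tail added by the Rab escort protein and the Rab geranylgeranyl transferase anchors the protein. Each compartment carries its own Rabs, and in B cells the pathway serves antigen receptor uptake, delivery of antigen to late endosomes for presentation, and secretion.

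Signals are given on a linear scale on which the 75th percentile of every array equals 1078, and differences as log2 values, lines minus splenocytes, with the standard error of the limma fit and n = 2 against 2. Before scaling, the 75th percentile ran from 514 to 1315 over the arrays, between 24972 and 27318 probes per array were well above background, and no probe of a Rab gene was saturated. Across the tested genes, which are not independent replicates, Pearson's r was 0.992 for the pair of splenocyte arrays, 0.991 for the pair of lines and 0.834 to 0.846 for arrays of different groups. The labels do not say whether the splenocyte samples came from separate mice, so the p-values cover no more than the spread seen among these arrays, which may be technical. An exact permutation test of 2 against 2 cannot go below p = 0.333. Drd3, the gene of the transgene, was well above background in both lines (scaled signals 13.5 and 12.2) and in neither splenocyte sample (9.56 and 6.14), and its difference of 0.75 ± 0.26 was not called (limma adjusted p = 0.064).

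The B cell label was checked with 10 markers, all of them well above background in both lines; 8 were lower and 2 not called, with summed signals of 817900 to 1038000 in the splenocytes and 466000 to 476400 in the lines. Markers of other cells moved with the groups too. Their counts stand against 30.6% higher and 32.6% lower among all tested genes. Of 12 tested macrophage, monocyte and neutrophil markers 8 were lower and 1 higher, and Lyz1, Lyz2 and S100a8 were not well above background in either line. The sum of that list was 11970 to 18550 in the splenocytes and 38460 to 38890 in the lines, where Adgre1 alone gave 38064 and 38448. Of 8 NK cell markers 7 were lower and 1 higher, with 5 not well above background in either line and sums of 1659 to 1710 against 480.0 to 623. Of 8 dendritic cell markers 3 were higher and 3 lower (21770 to 24280 against 14430 to 14790), with Itgax not well above background in either line. Of 10 T cell markers 3 were higher and 4 lower (6386 to 8647 against 13420 to 15050). Most of the sum in the lines came from Cd3g (5485 and 6624) and Cd5 (5784 and 6174), while Cd3d, Cd8a, Lck and Trat1 were lower. Of 8 plasma cell markers 3 were higher and 1 lower (101800 to 119400 against 51810 to 86490), and of 5 platelet markers 1 was higher and 1 lower (2363 to 3087 against 2423 to 3389). The part of these cells in the differences of the Rab genes was not tested. In such bulk samples fewer cells of a type and less RNA per cell cannot be told apart.

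Rab genes changed in both directions. Rab6b was at least 220-fold lower in the lines, a bound for the processed signal with this scaling that is defined below. Rab39b was 20.2-fold higher, the largest increase among members well above background on all 4 arrays. Of the 49 tested, 24 (49.0%) were called at a limma adjusted p under 0.05, against 63.2% of the 18314 genes tested. The lines were higher for 13 Rab genes (26.5%), against 30.6% of all genes, and lower for 11 (22.4%), against 32.6%. At least a 2-fold increase was called in 9 Rab genes (18.4%, against 21.5% of all genes) and at least a 2-fold decrease in 7 (14.3%, against 24.4%). Each of these shares lay below that of the whole array, a difference given as a description. The median difference was -0.10 over the tested Rab genes and -0.05 over all tested genes. The groups did not overlap in 41 Rab genes (83.7%), against 85.0% of all genes.

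The balance of increases and decreases moved with the scaling. Centring each array on its median moved the median of all tested genes from -0.05 to 0.36 and that of the Rab genes to 0.31, and 18 Rab genes were then called higher and 7 lower. The share of higher genes among all calls rose from 48.4% to 63.2% under that centring. After quantile normalization, which put the median of all genes at 0.10, 11 were higher and 13 lower. With a percentile over bright probes (-0.17) 11 were higher and 14 lower, and with normexp background correction (-0.31) 10 were higher and 12 lower. Of the 24 calls, 14 held under every alternative run: Rab6b, Rab32, Rab20, Rab39, Rab19, Rab43, Rab37, Rab7, Rab1, Rab28, Rab27a, Rab25, Rab3b and Rab39b.

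**Figure D1:**
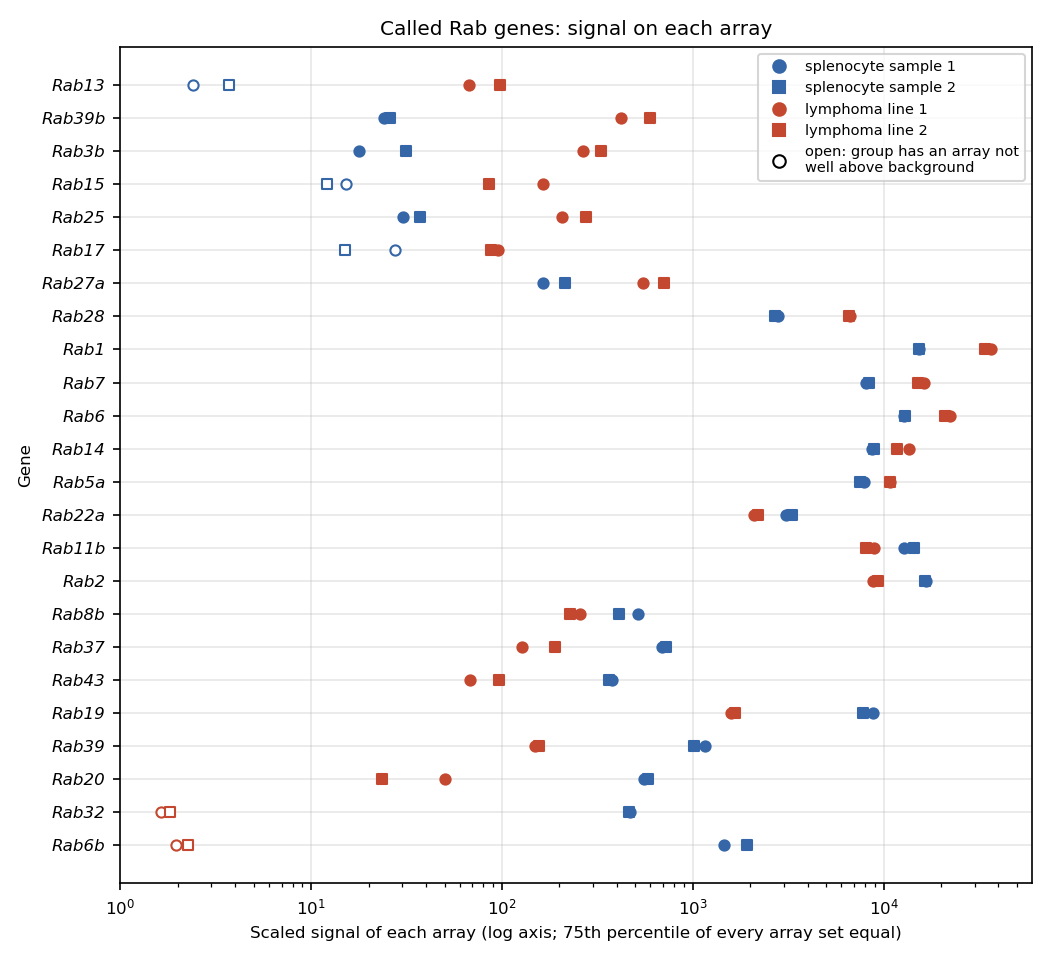
Scaled signal (horizontal log axis, linear units with the 75th percentile of every array set equal) of the 24 called Rab genes on each of the 4 arrays, ordered by their log2 difference; blue marks are splenocyte samples, red marks are lymphoma lines, and open marks belong to a group with an array not well above background. The groups do not overlap in any gene plotted. Rab13 at the top and Rab6b and Rab32 at the bottom have open marks for a group dim on both arrays, so that their order rests on fitted values of dim probes. Rab15 and Rab17 have open splenocyte marks, with 1 splenocyte array well above background. The positions of different genes along the axis also depend on their probes.

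Within the Rab6 and Rab39 families the paralogues were called in opposite directions, with the widest gap between Rab6 and Rab6b. Rab6, now named Rab6a, is the widely expressed Rab of Golgi and retrograde transport, and Rab6b is its close relative known mainly from neurons. The probe of Rab6b (mm8, chr9:103043359-103043418, plus strand) gave signals of 1466 and 1924 in the splenocyte samples and of 1.96 and 2.26 in lines 1 and 2. Both line arrays were not well above background, so that the decrease was at least 220-fold (fitted difference -9.64 ± 0.20, limma adjusted p = 1.02e-04). The other Rab6b probe (chr9:103041021-103041080) fell as well, from 256 and 427 to 1.79 and 2.07, also not well above background in the lines.

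The bound for Rab6b compares the mean of the bright arrays with a mean that takes, on each dim array, the higher of the probe's own signal and the lowest signal called well above background there. The other bounds given for dim genes use the same lowest signals. They hold for the processed signal with this scaling, not for every background correction. On the log2 scale they were -7.78 for Rab6b, -5.93 for Rab32 and 2.90 for Rab13. With normexp and an offset of 50 the differences were -4.88, -3.41 and 0.67. Rab6 (chr7:100515214-100515273, plus strand) gave 12791 and 12880 in the splenocytes and 22165 and 20997 in the lines, an increase of 0.75 ± 0.14 (1.68-fold; limma adjusted p = 0.0102). Both lines were above both splenocyte samples. That call was lost without splenocyte replicate 1 (0.74) or splenocyte replicate 2 (0.75), at limma adjusted p values of 0.0656 and 0.0661, and with the mean over both Rab6 probes (0.38, adjusted p = 0.0779), with adjusted values as low as 0.00195 under other alternatives. The second Rab6 probe itself differed by 0.00 and was not called.

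Rab39 and Rab39b take part in late endosomal, phagosomal and autophagic traffic, and RAB39B is known as an X-linked intellectual disability gene of neurons. The probe of Rab39 (chr9:53446758-53446817, minus strand) fell from 1159 and 1010 in the splenocytes to 149 and 156 in the lines, by 2.83 ± 0.15 on the log2 scale (7.11-fold; limma adjusted p = 4.75e-04). The probe of Rab39b (chrX:71825563-71825622, minus strand) rose from 24.1 and 25.8 to 423 and 595, a difference of 4.33 ± 0.22 (20.2-fold; limma adjusted p = 4.05e-04). In both genes the line arrays lay far outside the splenocyte arrays, and all 4 arrays were well above background. With normexp background correction and an offset of 50 the differences of Rab39b and Rab6b were 2.39 and -4.88, both still called. The gap between the paralogues on the log2 scale was at least 8.53 for the Rab6 pair, with Rab6b at its bound, and 7.16 for the Rab39 pair. No other family of tested members sharing a number had called members in opposite directions.

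The 250 bases before the start of these 4 genes are printed because the genes form the paralogue pairs called in opposite directions. The bases are RefSeq sequence of build GRCm38.p6, read 5′ to 3′ on the gene's strand. Capitals mark 3 short motifs on either strand. These are the CCAAT box, printed as ATTGG where it lies on the other strand, the GC box GGGCGG, printed there as CCGCCC, and the TATA box searched as TATAAA, printed there as TTTATA. The E-box CACGTG and the cAMP response element TGACGTCA were searched too and not found in these 4. No motif hit overlaps another here.
Rab6 (Rab6a), chr7:100607336-100607585, plus strand: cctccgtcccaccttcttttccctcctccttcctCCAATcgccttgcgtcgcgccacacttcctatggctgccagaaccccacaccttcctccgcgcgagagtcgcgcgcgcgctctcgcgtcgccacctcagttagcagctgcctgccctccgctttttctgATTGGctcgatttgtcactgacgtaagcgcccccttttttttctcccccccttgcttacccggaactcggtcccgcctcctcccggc
Rab6b, chr9:103111824-103112073, plus strand: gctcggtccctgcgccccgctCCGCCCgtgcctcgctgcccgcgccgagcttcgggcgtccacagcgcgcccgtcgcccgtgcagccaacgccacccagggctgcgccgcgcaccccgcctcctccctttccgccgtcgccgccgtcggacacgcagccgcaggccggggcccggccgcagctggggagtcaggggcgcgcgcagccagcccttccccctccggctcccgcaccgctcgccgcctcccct
Rab39, chr9:53706233-53706482, minus strand: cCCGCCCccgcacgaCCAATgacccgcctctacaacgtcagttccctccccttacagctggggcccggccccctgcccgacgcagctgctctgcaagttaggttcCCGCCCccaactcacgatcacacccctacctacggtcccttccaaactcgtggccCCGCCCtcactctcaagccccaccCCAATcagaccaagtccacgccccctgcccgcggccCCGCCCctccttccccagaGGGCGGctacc
Rab39b, chrX:75578232-75578481, minus strand: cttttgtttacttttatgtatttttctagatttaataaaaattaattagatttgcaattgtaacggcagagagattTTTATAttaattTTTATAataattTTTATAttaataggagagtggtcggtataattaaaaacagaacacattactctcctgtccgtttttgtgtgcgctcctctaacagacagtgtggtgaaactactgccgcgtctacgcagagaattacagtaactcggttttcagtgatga

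The window of Rab6b was the richest in G and C of the 4 (80.8%, with 40 CpG), above 99.0% of all 32851 RefSeq promoter windows of this length. That of Rab6 had 62.8% and 24 CpG and held 2 CCAAT boxes. The Rab39 window had 68.8% and 18 CpG with 5 GC boxes and 2 CCAAT boxes. The Rab39b window stood at the other end, with 31.6% and 8 CpG, and only 2.16% of all windows were lower; it held 3 copies of TATAAA, all on the other strand. A promoter was listed for 45 of the Rab genes, in 57 windows, with a median of 60.8% G and C and 16 CpG, against 52.4% and 6 over all windows. A GC box was found in 66.7% of Rab windows and in 32.7% of all, a CCAAT box in 40.4% and 33.9%, TATAAA in 5.26% and 12.4%, CACGTG in 8.77% and 6.02%, and TGACGTCA in 3.51% and 1.55%. A match describes these letters only, and whether a factor binds there was not measured.

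**Figure D2:**
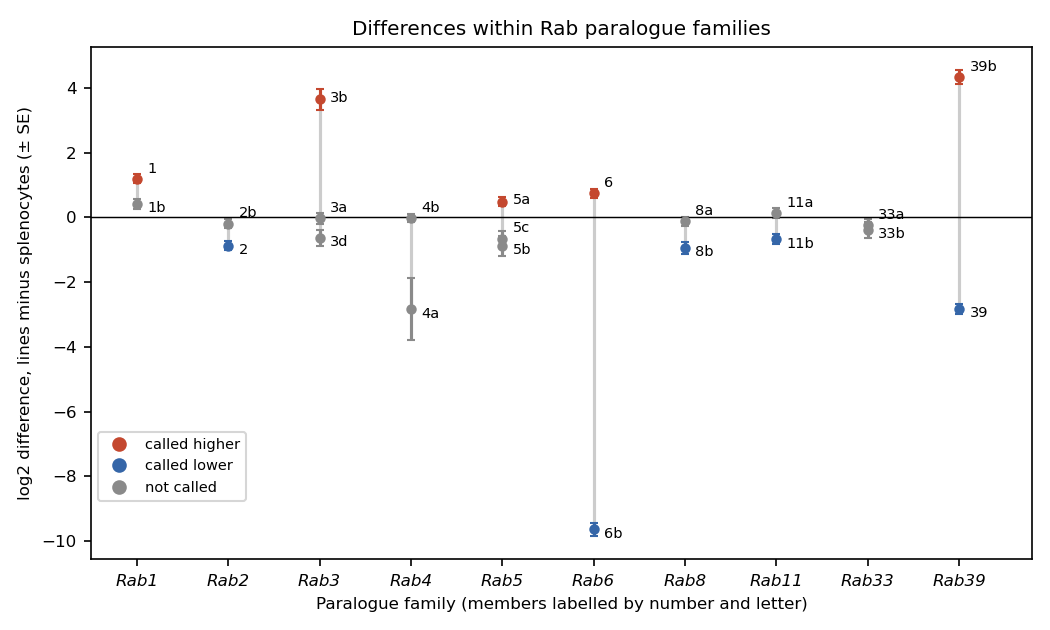
Log2 difference, lines minus splenocytes, with standard error (vertical axis) of the tested members of 10 Rab families (horizontal axis); grey lines join paralogues, red marks were called higher, blue marks lower, and grey marks were not called. The Rab6 pair spans at least 8.53 and the Rab39 pair 7.16 on the log2 scale, the plotted Rab6b value being fitted to a probe not well above background in the lines, and both pairs cross 0 with called members on either side.

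The called counts of each compartment group below stand against 30.6% higher and 32.6% lower among all tested genes. With so few members per group they are a description only. Among Rabs of the endoplasmic reticulum and Golgi, 2 of 13 tested members rose, 4 fell and 7 were not called, with a median difference of -0.24. Rab1, now Rab1a, which drives transport from the endoplasmic reticulum to the Golgi, was bright in every sample and brighter in the lines. Its probe gave 15269 and 15387 in the splenocytes and 36362 and 33893 in the lines (1.20 ± 0.14, 2.29-fold; limma adjusted p = 0.00284). Its second probe also rose. Rab1b, its paralogue, gave 7190 and 8134 against 11006 and 9510, a difference of 0.42 ± 0.16 that was not called (limma adjusted p = 0.085).

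Rab19, a Rab located at the Golgi, fell from 8782 and 7838 to 1588 and 1664 (-2.35 ± 0.15, 5.10-fold; limma adjusted p = 6.72e-04). Rab43, which also acts in Golgi traffic, fell from 376 and 366 to 68.3 and 96.6 (-2.19 ± 0.22, 4.57-fold; limma adjusted p = 0.00189). The groups did not overlap in either gene. The other 3 tested Rab43 probes differed by 0.03 (not called), -1.08 and -1.31, and the mean over its probes by -1.14, also called. Rab2, now Rab2a, a regulator of traffic between the Golgi and the endoplasmic reticulum, was lower at its brightest probe, with 16757 and 16525 against 8774 and 9405 (-0.87 ± 0.14; limma adjusted p = 0.00674). Its other probe went the opposite way, as given with the probes. Rab18, Rab1b, Rab2b, Rab30, Rab33a, Rab33b and Rab34 were not called, with differences between -0.46 for Rab30 and 0.42 for Rab1b.

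Early endosome Rabs included 10 tested members, of which 2 rose, 2 fell and 6 were not called, with a median of -0.34. Rab20, a Rab of endosomes and phagosomes best known from macrophages, fell most. Its probe (chr8:11454155-11454214, minus strand) gave 555 and 583 in the splenocytes and 50.1 and 23.6 in the lines, a difference of -4.05 ± 0.39 (16.5-fold; limma adjusted p = 0.0018). Both lines were far below the splenocytes, line 2 was 2.12-fold below line 1, and the difference was -2.94 with normexp, still called. In the same arrays 8 of 12 markers of macrophages, monocytes and neutrophils were lower and 3 were not called, against 32.6% lower among all tested genes. The remaining 1, Adgre1, was higher (2298 and 1819 in the splenocytes against 38064 and 38448 in the lines). The part of these cells in the Rab20 decrease was not tested. Rab17, a Rab of epithelial cells, rose from 27.5 and 15.0 to 95.5 and 87.8 (2.17 ± 0.33, 4.51-fold; limma adjusted p = 0.0057), with 1 of 2 splenocyte arrays well above background.

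The remaining early endosome calls were small. Rab5a, the regulator of early endosome fusion, gave 7903 and 7568 against 10821 and 10819 (0.48 ± 0.14, 1.40-fold; limma adjusted p = 0.0358). Rab22a, which acts at early endosomes and in recycling, gave 3066 and 3306 against 2083 and 2198 (-0.57 ± 0.14, 1.49-fold lower; limma adjusted p = 0.0248). The groups did not overlap in either gene, yet the Rab5a call held under 6 of 14 alternatives and the Rab22a call under 8 of 14. Without splenocyte replicate 1 or 2 and without lymphoma replicate 1 both calls were lost, with Rab5a at 0.52, 0.45 and 0.48 and Rab22a at -0.63, -0.52 and -0.53, and Rab5a was also lost without lymphoma replicate 2 (0.48). Limma adjusted p ran from 0.00814 to 0.181 for Rab5a and from 0.00654 to 0.431 for Rab22a over these alternatives.

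Rab5b and Rab5c, the paralogues of Rab5a, had differences of -0.88 ± 0.30 and -0.66 ± 0.25 that were not called (limma adjusted p = 0.0582 and 0.0791), each called under 4 of 14 alternatives. Rab4a, a Rab of fast recycling, had the largest difference among the genes not called (-2.84 ± 0.96; limma adjusted p = 0.058). Its signals were 23.8 and 38.5 in the splenocytes, 1.66 in line 1, where it was not well above background, and 10.8 in line 2, so that the lines were at least 1.64-fold apart. It was called lower under 5 of 13 alternatives: normexp (-1.0), without lymphoma replicate 1 (-1.49), without lymphoma replicate 2 (-4.19), eBayes with trend and robust, and the replicate block. Rab4b, its paralogue, gave 5736 to 5933 on all arrays (-0.02 ± 0.14). The 95% interval of the Rab4b difference was -0.39 to 0.35. Rab21 and Rab31 were not called either, at -0.10 and 0.30.

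Rabs of recycling and delivery to the plasma membrane had 4 increases, 2 decreases and 5 genes not called among 11 tested, with a median of 0.19. The 3 large increases were of genes best known from epithelia or neurons. Rab13, which acts at epithelial junctions, gave 2.41 and 3.72 in the splenocytes, not well above background, and 67.1 and 97.5 in the lines. On the processed signal with this scaling the increase was at least 7.49-fold (fitted difference 4.75 ± 0.31, limma adjusted p = 7.33e-04), from a probe aligned at chr3:90309737-90310422. The fitted value and its standard error rest on splenocyte signals not well above background. With normexp the difference was 0.67 and was not called. Rab15, a Rab of neuronal endosomes, rose from 15.3 and 12.1 to 164 and 85.7 (3.12 ± 0.37, 8.72-fold; limma adjusted p = 0.00286), with 1 splenocyte array well above background.

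Rab25, an epithelial relative of Rab11, rose from 30.3 and 37.3 to 206 and 277 (2.83 ± 0.22, 7.11-fold; limma adjusted p = 0.0011). The 4 arrays were all well above background for Rab25, and the groups were far apart. The calls of Rab13, Rab15 and Rab17 were lost with normexp background correction and an offset of 50, where the differences were 0.67, 0.82 and 0.48 (limma adjusted p = 0.124, 0.1 and 0.154). Rab25 kept its call there at 1.36. The other alternatives run for Rab13, Rab15 and Rab17 kept the call, with adjusted p from 1.79e-04 for Rab13, from 7.54e-04 for Rab15 and from 0.00205 for Rab17.

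Rab8b, a Rab of delivery to the cell surface, fell from 517 and 412 to 255 and 229 (-0.94 ± 0.18, 1.91-fold; limma adjusted p = 0.0123), and its paralogue Rab8a differed by -0.12 ± 0.14 and was not called. Rab11b, a Rab of the recycling endosome, gave 12735 and 14428 against 8948 and 8086 (-0.67 ± 0.16, 1.59-fold lower; limma adjusted p = 0.0205). The other Rab11b probes differed by -0.07 and -0.48 (not called) and by -0.51 (called). Its paralogue Rab11a differed by 0.14 ± 0.15 and was not called. Rab14, which links the Golgi with endosomes, gave 8701 and 8956 against 13514 and 11825 at its brightest probe (0.52 ± 0.15, 1.43-fold higher, limma adjusted p = 0.039). A Rab14 probe of nearly the same brightness (9298 and 10582 against 11716 and 10651) differed by 0.17 and was not called. Another Rab14 probe fell, as given with the probes. The calls of Rab8b, Rab11b and Rab14 were not stable when 1 array was left out. Rab8b was lost without splenocyte replicate 1 (-0.77). Rab11b was lost without splenocyte replicate 1 (-0.76), splenocyte replicate 2 (-0.58) or lymphoma replicate 2 (-0.60), and Rab14 without splenocyte replicate 1 (0.50), splenocyte replicate 2 (0.54) or lymphoma replicate 1 (0.42). Rab10, Rab12 and Rab35 were not called at the probes used, with differences of -0.42, 0.19 and 0.31; Rab10 was called lower under 4 of 14 alternatives.

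Late endosomal and lysosomal Rabs had 2 increases, 1 decrease and 2 genes not called among 5 tested, with a median of 0.02. Beside the Rab39 pair, Rab7, the Rab of transport from late endosomes to lysosomes, rose. It gave 8129 and 8410 in the splenocytes and 16356 and 15152 in the lines (0.93 ± 0.14, 1.90-fold; limma adjusted p = 0.00584), and both its probes were called higher. Rab9, which returns receptors from late endosomes to the Golgi, differed by 0.02 ± 0.15, and Rab24, linked to autophagy, by -0.15 ± 0.16. The 95% intervals of these differences were -0.40 to 0.44 and -0.58 to 0.28, and the groups overlapped in both genes.

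Rabs of secretory granules and lysosome-related organelles had 2 increases, 2 decreases and 3 genes not called among 7 tested, with a median of -0.47. Rab32, which serves melanosomes and other lysosome-related organelles together with Rab38, was measurable in the splenocytes alone. Its probe (chr10:10235526-10235585, minus strand) gave 471 and 462 in the splenocytes and 1.64 and 1.83 in the lines, where it was not well above background. The decrease was at least 61.1-fold (fitted difference -8.07 ± 0.15, limma adjusted p = 9.61e-05). Rab38 was not well above background on any array. Rab32 has 1 tested probe, and its difference was -3.41 with normexp, still called.

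Rab37, a granule Rab of mast cells, fell from 689 and 725 to 127 and 189 (-2.19 ± 0.24, 4.56-fold; limma adjusted p = 0.00234), at both its probes. Rab27a, which docks lysosome-related organelles and secretory vesicles at the plasma membrane, rose from 164 and 214 to 550 and 705 (1.73 ± 0.22, 3.32-fold; limma adjusted p = 0.00372). The other Rab27a probe was dim (18.8 and 7.54 against 15.3 and 22.9), differed by 0.65 and was not called. Rab3b, a Rab of regulated exocytosis, rose from 17.7 and 31.4 to 265 and 329 (3.65 ± 0.33, 12.5-fold; limma adjusted p = 0.00149). Both Rab3b probes were called higher. Its difference was 1.76 under normexp and 2.92 as the mean over its probes, both called. At the probes used, the lines stood clear of the splenocytes in all 3 genes. The paralogues of Rab3b were not called. Rab3a gave 1410 and 1781 against 1525 and 1580 (-0.03 ± 0.18; limma adjusted p = 0.896). Rab3d gave 298 and 405 against 192 and 260 (-0.64 ± 0.25; limma adjusted p = 0.0862). Rab26, another granule Rab, differed by -0.47 ± 0.37 and was not called either. Rab27b was well above background on the array of line 1 only and was not tested.

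Of the remaining Rabs, Rab28, known from cilia and photoreceptors, rose from 2805 and 2695 to 6633 and 6593 (1.27 ± 0.14, 2.41-fold; limma adjusted p = 0.00231). Another Rab28 probe was called higher (1.47), and a dimmer one (74.9 and 53.9 against 38.4 and 62.1) differed by -0.38 and was not called. At the probe used, the line values differed little from each other and lay above both splenocyte values. Rab23, a ciliary regulator of Hedgehog signalling, and Rab40c, which pairs a Rab domain with a domain of ubiquitin ligases, were not called at the probes used, at 0.39 and 0.04.

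**Figure D3:**
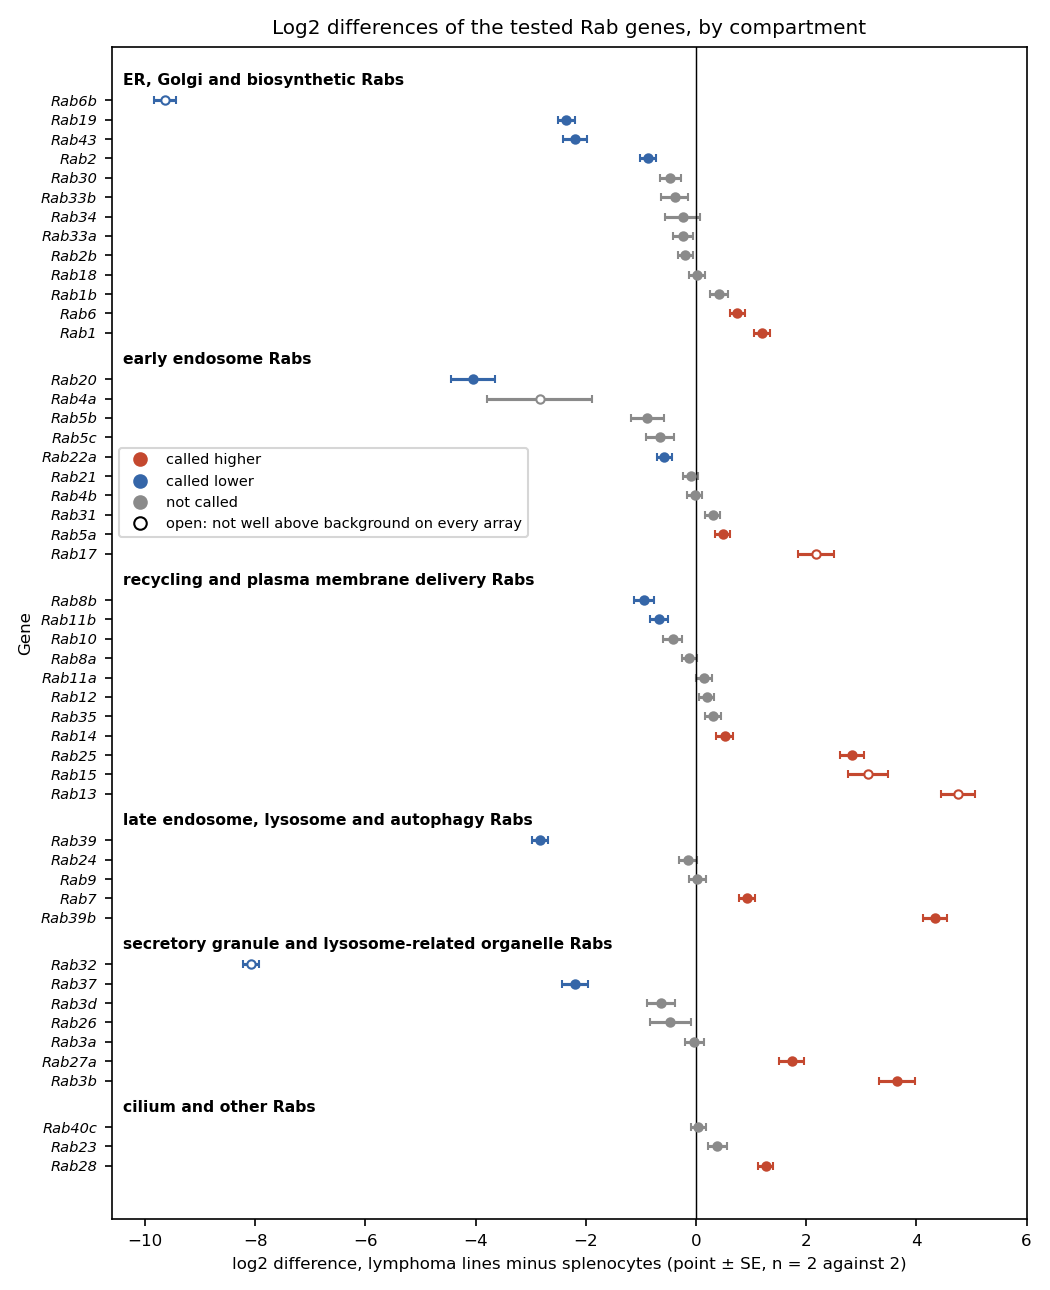
Log2 difference, lines minus splenocytes, with standard error (horizontal axis) for the 49 tested Rab genes, grouped by the compartment they serve; red marks were called higher, blue marks lower, grey marks were not called, and open marks had an array not well above background. Every compartment group but the last has called genes on both sides of 0, and fitted values run from -9.64 for Rab6b to 4.75 for Rab13, both open marks.

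Of the 25 Rab genes that were not called, 15 differed by less than 1.3-fold between the group means. The groups overlapped in 8 of the 25, namely Rab18, Rab24, Rab26, Rab34, Rab3a, Rab40c, Rab4b and Rab9, and did not overlap in the other 17. Of the 25, 14 were called under at least 1 alternative. These counts were not taken over the uncalled genes of the whole array. Of the 46 tested Rab genes well above background in both lines, Rab20 alone differed at least 2-fold between them. The median absolute difference over the tested Rab genes was 0.15 between lines 1 and 2 and 0.12 between the splenocyte samples, on the log2 scale. No line had a second array, so the difference between lines was not tested.

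Probes of the same gene did not always move together. Of 30 Rab genes with at least 2 tested probes, 3 had probes called in opposite directions (10.0%, against 8.67% of 6230 such genes on the array). For Rab2 the brightest probe (chr4:8505117-8505176) fell by 0.87, while the other (chr4:8534332-8534391), 29215 bases away, rose from 2136 and 2209 to 4048 and 4894 (1.04 ± 0.17; limma adjusted p = 0.00638). For Rab14 the probe used rose by 0.52 and a probe of another transcript record (chr2:35009875-35009934) fell from 891 and 815 to 180.3 and 310.2 (-1.85 ± 0.30; limma adjusted p = 0.00645). For Rab12 the probe used was not called, while the other probes rose by 1.27 ± 0.25 and fell by 2.01 ± 0.46 (limma adjusted p = 0.0121 and 0.0186). With the mean over all tested probes Rab2 stood at 0.08 and Rab14 at -0.39, and neither was called. A direction for the whole gene therefore cannot be given for these 3.

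Rab10, Rab11a, Rab12, Rab1b, Rab23, Rab26 and Rab40c were not called at their brightest probe and had another probe called, higher in 6 of them and lower in Rab10 and Rab12. In Rab23 both other probes rose, one from 242 and 208 to 1031 and 940.1 (2.13 ± 0.16, limma adjusted p = 9.22e-04). In Rab10 all 3 other probes fell, by 0.65 to 3.48 on the log2 scale, the last of them not well above background in the lines. Of 15 called Rab genes with several tested probes, 7 had all probes called the same way: Rab1, Rab37, Rab3b, Rab5a, Rab6b, Rab7 and Rab8b. Neither of these counts was taken over all genes, of which 63.2% were called, so neither is read as particular to Rab genes. Which transcript form each probe reads was not determined here.

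**Figure D4:**
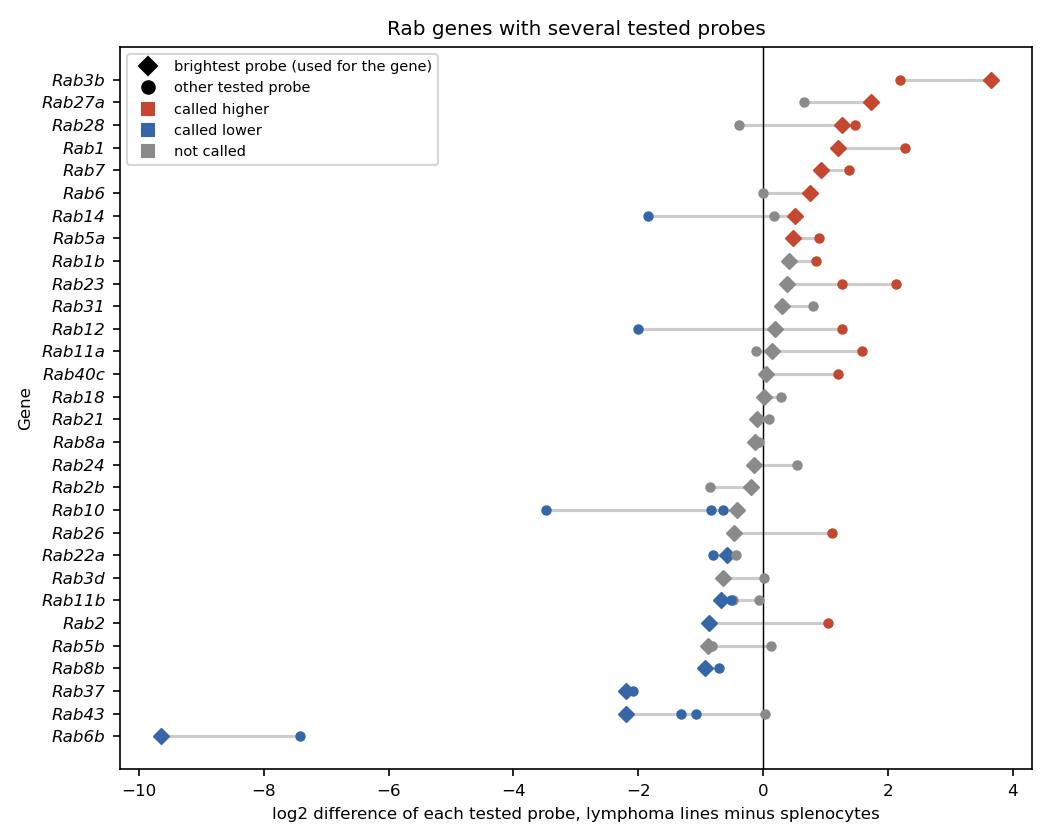
Log2 difference, lines minus splenocytes (horizontal axis), of every tested probe of the 30 Rab genes with several tested probes; diamonds are the brightest probe, used for the gene, circles the other probes, and colours mark probes called higher (red), lower (blue) or not called (grey). Rab2, Rab14 and Rab12 have called probes on both sides of 0, and both Rab6b probes lie far to the left.

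The genes that prenylate, load, switch and read Rabs were taken as 4 lists, whose counts stand against 30.6% higher and 32.6% lower among all genes. Of 8 tested genes of prenylation, escort and recycling of Rabs, 1 rose, 2 fell and 5 were not called (median -0.22). The transferase subunits moved apart. Rabggtb, the beta subunit of the Rab geranylgeranyl transferase, gave 6254 and 5331 against 11104 and 8996 (0.79 ± 0.19, 1.73-fold; limma adjusted p = 0.0215), and Rabggta, the alpha subunit, gave 2270 and 2327 against 501 and 652 (-2.01 ± 0.19, 4.02-fold lower; limma adjusted p = 0.00162). Rabac1, a membrane protein that binds prenylated Rabs, fell 2.86-fold. The Rabggtb call was lost without splenocyte replicate 1 (0.91), splenocyte replicate 2 (0.68) or lymphoma replicate 1 (0.64).

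Of 30 tested Rab exchange factors 3 rose, 12 fell and 15 were not called, with a median of -0.32. With centring on the median 8 rose and 8 fell. Among those bright on every array, the largest decreases were those of Rin3, a Rab5-family exchange factor (3700 and 3582 against 318 and 290.2, 12.0-fold), Dennd2d (11.4-fold) and Dennd1b (8.22-fold), both of the DENN domain family. Dennd1b was at -2.07 as the mean over its probes, -2.42 without lymphoma replicate 1 and -3.66 without lymphoma replicate 2, against -3.04 in the fit of all arrays. The 3 increases were those of Sbf2, a DENN domain protein with an inactive phosphatase domain (6.36-fold), Ccz1, part of the exchange factor of Rab7 (2.22-fold), and Rabgef1, rabex-5, which acts on Rab5 (1.80-fold). The Rabgef1 call (limma adjusted p = 0.0264) was lost without splenocyte replicate 1 (0.87) or splenocyte replicate 2 (0.82), and with no filter on dim probes (adjusted p = 0.0652; 0.00415 to 0.107 over the alternatives).

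Of 36 tested Rab GTPase-activating proteins 10 rose, 11 fell and 15 were not called, with a median of -0.23, and with centring on the median 12 rose and 5 fell. Tbc1d7, also a subunit of the tuberous sclerosis complex, rose from 221 and 215 to 1478 and 1481 (6.79-fold). Sgsm3 rose 3.57-fold and Evi5, which acts on Rab11, 2.75-fold. Tbc1d2, a regulator of Rab7, fell 7.62-fold, Tbc1d10c, a lymphocyte TBC protein also known as carabin, 4.49-fold from 24479 and 27623 to 5209 and 6438, and Tbc1d14 3.14-fold. The Tbc1d2 difference of -2.93 was -2.01 with normexp and -0.92 as the mean over its probes, both called. Sgsm1 was not well above background in the splenocytes and rose at least 7.66-fold, with signals of 293 and 23.4 in lines 1 and 2, which alone give at least 27.1-fold and 2.16-fold. Its fitted difference of 4.55 was not called without splenocyte replicate 1 (4.05) or splenocyte replicate 2 (5.05), with normexp (0.76) or with no filter on dim probes, and was 2.72 without lymphoma replicate 1 and 6.37 without lymphoma replicate 2, both called.

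Fewer GTPase-activating proteins were called whichever array was left out, and fewer genes of the whole array were called in each of these fits as well. A fit without 1 splenocyte array leaves the remaining splenocyte array to be judged by the spread of the lines. Of 54 tested Rab effectors 14 rose, 23 fell and 17 were not called, with a median of -0.23. With centring on the median 17 rose and 18 fell. Osbpl1a, a sterol-binding effector of Rab7, rose from 348 and 290 to 3661 and 4009 (12.1-fold), Kif20a, a mitotic kinesin first described as a Rab6 effector, 6.44-fold, and Sytl1, an effector of Rab27, 5.83-fold.

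Among effectors bright on every array, the largest decreases were those of Rab11fip5, a Rab11 effector, from 459 and 599 to 40.9 and 43.1 (12.5-fold), Exoc6b, a subunit of the exocyst (9.24-fold), and Plekhm1, a Rab7 effector at lysosomes (5.27-fold). Bicd1, a dynein adaptor that binds Rab6, was not well above background in the lines and fell at least 6.53-fold. With normexp Rab11fip5, Exoc6b, Bicd1 and Sytl1 differed by -2.58, -2.25, -1.39 and 1.38, and Osbpl1a by 2.49 as the mean over its probes, all called. Of the 23 genes of these 4 lists named here, 20 kept their call under every alternative run, the exceptions being Rabggtb, Rabgef1 and Sgsm1.

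**Figure D5:**
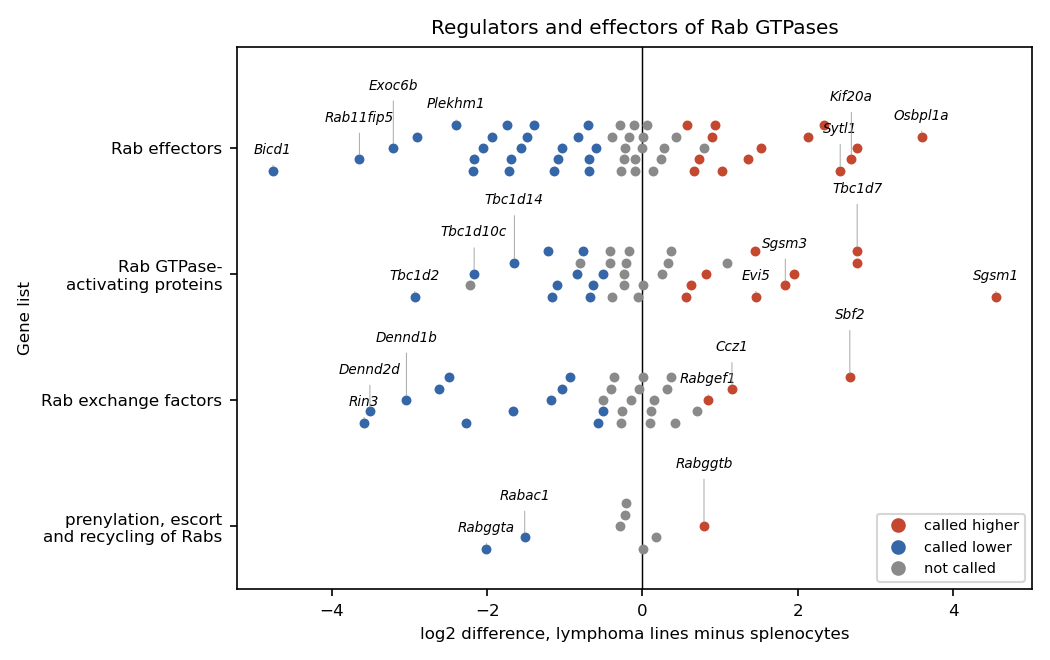
Log2 difference, lines minus splenocytes (horizontal axis), of each tested gene in 4 lists of Rab regulators and effectors; red marks were called higher, blue marks lower, grey marks were not called, vertical offsets within a list carry no meaning, and the named genes are labelled. Exchange factors have 12 blue and 3 red marks and effectors 23 blue and 14 red, while the GTPase-activating proteins have 11 and 10.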

How the data were processed

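Total RNA, labelled with Cy3, was hybridised to 4 single-colour Agilent mouse arrays with 43379 non-control spots (41174 probes, mm8 annotation). Images were read with Feature Extraction (9.5.1.1 per the file headers, 9.5 per the submitters' processing notes). The authors deposited a processed signal, an intensity already corrected for background, and the raw mean and background intensity of each spot. The series also has a deposited matrix, with that intensity scaled to a common 75th percentile, as read from its values.

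The values analysed are log2 processed signal minus the log2 75th percentile of each array. Flagged spots (403) were left out and spots of 1 probe averaged. Probes well above background on at least 2 arrays were kept, and the brightest kept probe of each name was tested (18314 genes). The groups, taken from the titles, entered a fit with limma 3.58.1 (two-sided lmFit and eBayes, Benjamini-Hochberg adjustment over all genes, called under 0.05) in R 4.3.3 with the data.table package (1.17.8). The fit was checked on simulated data. Probe values were fitted likewise over 27402 probes. All arrays came from 1 slide and 1 scan. The number of arrays limits the precision.

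Members, lists and tests were chosen with earlier results of these data known. Every tested Rab gene is named. Full values are given for Rab genes called and changed at least 2-fold, for genes dim in a whole group, and for their tested paralogues. For each list of partners the called genes bright on all arrays with the 3 largest rises and the 3 largest falls, and the largest bound each way, are named. Some genes of these lists are not reported here. Of the Rab names, 52 matched RefSeq and 3 were renamed. Alternatives covered scaling, background correction, filter, probe choice, variance model, a replicate block and leaving out each array. Replicate numbers were not taken as pairs, since the labels do not say that they mark a shared batch. Deviations at the same number correlated at 0.0136 across genes.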

Additional observations from a re-analysis of the deposited data

How the results depend on the processing

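Leaving out 1 array in turn, Rab genes called higher ranged from 10 to 12 and called lower from 8 to 13. GTPase-activating proteins called higher ranged from 6 to 9 and lower from 5 to 10, effectors called higher from 9 to 15, and prenylation genes called higher from 0 to 1. Centring on the median left 7 Rab genes lower with a Rab median of 0.31, 5 GTPase-activating proteins lower with 12 higher, and 8 exchange factors higher with 8 lower. With the percentile over bright probes the Rab median was -0.22. With normexp 6 GTPase-activating proteins were higher, and 9889 genes were called over the whole array, against 11579 in the main fit. With no filter on dim probes 6 GTPase-activating proteins were higher and 7 lower, and 0 prenylation genes were higher at an adjusted p under 0.05. Without that filter 10430 of 27661 genes were called. A replicate block, tried although the labels do not say that the numbers pair the samples, gave 11 Rab genes higher and 13 lower and 10803 genes called. The slide as a block was not run, since all arrays share 1 slide.

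Of the called Rab genes, Rab14 (-0.39) and Rab2 (0.081) changed sign with the mean over tested probes; the other 22 kept their sign under every alternative run. The remaining sign changes were of Rab genes not called. With centring on the median they were Rab21 (0.31), Rab24 (0.26), Rab2b (0.22), Rab33a (0.17), Rab33b (0.021), Rab34 (0.17), Rab3a (0.38), Rab4b (0.39) and Rab8a (0.29). With quantile normalization they were Rab11a (-0.012), Rab18 (-0.15), Rab33a (0.037), Rab34 (0.22), Rab40c (-0.12) and Rab9 (-0.15), and with the percentile over bright probes Rab18 (-0.11), Rab40c (-0.084) and Rab9 (-0.11). With the mean over tested probes they were Rab12 (-0.18), Rab21 (0.0034), Rab24 (0.20) and Rab26 (0.32), and with normexp Rab4b (0.017). Leaving out 1 array in turn, Rab18 ranged from -0.063 (without splenocyte replicate 1) to 0.094 (without splenocyte replicate 2), Rab26 from -0.97 (without lymphoma replicate 2) to 0.031 (without lymphoma replicate 1), Rab34 from -0.62 (without splenocyte replicate 2) to 0.14 (without splenocyte replicate 1), Rab3a from -0.20 (without splenocyte replicate 1) to 0.14 (without splenocyte replicate 2), and Rab9 from -0.087 (without lymphoma replicate 1) to 0.13 (without lymphoma replicate 2).

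With 2 arrays per group, small differences were the least stable: the 7 called Rab genes under 2-fold other than Rab7 lost their call in at least 1 alternative.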
